A study of Mus musculus with 4 samples.

Results

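The genes described here are 45 members of TGF-beta, BMP and activin signalling: ligands with their latency proteins, receptors, secreted antagonists, Smads, Smad inhibitors and target genes. They were chosen by name, and a probe belongs to them if the array's design gives it a member's symbol, which holds for 83 of the 56605 probes and for all 45 genes. The cells are GC-1, an immortalised mouse line described as spermatogonial, and every sample was transfected, so there is no untransfected control. Of the 4 samples, 2 received an empty plasmid vector and 2 a pCMV plasmid in which a CMV promoter drives murine Hdac6 with a myc/DDK tag. RNA was taken 48 h after transfection, and the medium of all 4 samples was changed in between. The effect of the medium change on the levels was not tested. Hdac6 is a mostly cytoplasmic deacetylase of tubulin and other proteins, and the series asks what its overexpression does to transcripts of this line. Each sample was hybridised to a one-colour array. The labels number the samples 1 and 2 in each group and do not say whether each came from a culture of its own, so the p-values reflect the spread among these 4 samples alone, which could be technical. In RNA from a whole culture, fewer cells of a type and less RNA per cell cannot be told apart, nor can a large change in few transfected cells and a small one in all.

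Ligands of this family bind a pair of type I and type II receptor kinases, and the type I kinase phosphorylates receptor Smads, which enter the nucleus with Smad4. TGF-beta and activin act mainly through Smad2 and Smad3, and BMPs through Smad1, Smad5 and Smad9. The inhibitory Smads, Smad6 and Smad7, and the Id genes are direct targets that serve as readouts of the pathway, Id1 to Id3 and Smad6 mainly of its BMP branch. In the testis, BMP4 and BMP8 proteins act on germ cells, activins and inhibins act between Sertoli and germ cells, and TGF-beta ligands take part in the control of junctions between them.

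Promoters are shown for the 3 members that were higher on both Hdac6 vector arrays than on both empty vector arrays (Id2, Id3 and Smad6) and for Ltbp1, the member with the largest difference between the vectors. The sequences are RefSeq's for build GRCm38.p6, each 254 bases in the gene's own direction, from 250 bases before the start site, and 33 of the 45 members had such an entry. Capitals mark GGCGCC, a GC-rich element that BMP Smads can bind, or GTCTAGAC, the palindromic Smad-binding element.
Id2, chr12:25096089-25096342, minus strand: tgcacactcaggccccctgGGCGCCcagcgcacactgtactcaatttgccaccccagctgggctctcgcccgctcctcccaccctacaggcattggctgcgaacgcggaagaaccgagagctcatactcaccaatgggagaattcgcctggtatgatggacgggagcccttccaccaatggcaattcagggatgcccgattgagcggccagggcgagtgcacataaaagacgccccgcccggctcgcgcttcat
Id3, chr4:136143572-136143825, plus strand: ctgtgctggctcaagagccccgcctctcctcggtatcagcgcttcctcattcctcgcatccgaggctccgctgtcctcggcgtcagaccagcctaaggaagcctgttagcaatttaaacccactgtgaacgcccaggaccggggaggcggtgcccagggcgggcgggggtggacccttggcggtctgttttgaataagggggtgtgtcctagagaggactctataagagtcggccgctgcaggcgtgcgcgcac
Smad6, chr9:64022056-64022309, minus strand: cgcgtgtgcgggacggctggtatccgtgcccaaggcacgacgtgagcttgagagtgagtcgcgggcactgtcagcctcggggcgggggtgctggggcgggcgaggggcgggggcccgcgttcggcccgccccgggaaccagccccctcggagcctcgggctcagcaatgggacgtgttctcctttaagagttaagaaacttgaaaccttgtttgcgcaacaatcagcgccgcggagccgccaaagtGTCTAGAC
Ltbp1, first start site, chr17:75005279-75005532, plus strand: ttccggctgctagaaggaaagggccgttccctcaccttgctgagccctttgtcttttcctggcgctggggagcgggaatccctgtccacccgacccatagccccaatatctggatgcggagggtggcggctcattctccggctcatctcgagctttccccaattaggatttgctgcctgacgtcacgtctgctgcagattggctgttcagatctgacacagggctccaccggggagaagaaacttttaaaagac
Ltbp1, second start site, chr17:75178531-75178784, plus strand: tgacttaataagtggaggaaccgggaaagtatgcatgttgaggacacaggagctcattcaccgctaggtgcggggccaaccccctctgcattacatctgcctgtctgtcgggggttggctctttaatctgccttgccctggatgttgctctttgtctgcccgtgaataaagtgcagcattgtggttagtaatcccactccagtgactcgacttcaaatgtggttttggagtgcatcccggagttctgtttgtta
GTCTAGAC and GGCGCC are each their own reverse complement, and the CAGA box AGCCAGACA was searched on both strands; no match overlaps another in these windows. Over windows of 300 bases, from 250 before to 50 after the start site, GTCTAGAC stood in 0.213% of all 32851 promoters (70) and in 1 of the members' 40, that of Smad6, where it begins at base 247 of the printed sequence. GGCGCC stood in 11.9% of all promoters (3898) and in 13 of the members' 40 (32.5%), among them that of Id2, at base 20 of the printed sequence. The CAGA box stood in 0.387% of all promoters (127) and in 0 of the members' 40. These are matches of letters in a short window, not measured binding.

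Probes were well above background on 61.0% to 66.4% of the spots of an array, and no spot was saturated. The arrays most alike came from different groups: 1.21% of tested probes were at least 2-fold apart between empty vector 2 and Hdac6 vector 1, and 5.34% to 7.67% in every other pair. Precision is limited by having 2 arrays a group. The array's 1 Hdac6 probe read 3.31 and 2.83 in the empty vector samples against 2.62 and 3.24 in the Hdac6 vector samples and was at 0.909-fold (95% interval 0.578 to 1.43) with an adjusted limma p of 1.00. Since it is not given whether the vector's insert holds the sequence this probe reads, it is no check of the labels. Levels here are log2 of the processed signal after dividing by the 75th percentile of the array, and since probes differ in brightness, levels of different genes are not ranked. Of 22 spermatogonia markers, 13 were well above background on all 4 arrays, among them Zbtb16, Sall4 and Lin28a, while Dazl, Kit, Ret, Thy1 and Cdh1 were on no array. The germ cell gene Ddx4 was so on the empty vector arrays alone, at -5.69 and -5.77 there against -7.14 and -6.13. Fewer probes in all were well above background on the Hdac6 vector arrays (35505 and 33563) than on the empty vector arrays (36744 and 35974). Markers of other testis cells were also measured on all 4 arrays, 6 of 10 for Sertoli cells (Amh and Cldn11 on none), 2 of 6 for Leydig cells (Hsd3b1 and Lhcgr on none) and 5 of 5 for peritubular myoid cells. So were 6 of 7 fibroblast markers (Lum on none) and 6 of 7 leukocyte markers (Adgre1 on none). Of all these markers 0 changed. The summed signal of the leukocyte list was 35.4 and 23.6 times the 75th percentile in the empty vector samples and 21.7 and 20.2 in the Hdac6 vector samples. That of the spermatogonia list was 83.3 and 51.1 and then 42.5 and 63.2. These sums follow their brightest genes and are no measure of cell numbers. Cd68, at 4.51 and 3.53 with the empty vector against 3.32 and 2.89, was the only tested leukocyte marker without overlap. Nearly all of the spermatogonia sum was Itga6, Uchl1 and Etv5. The part of these cell types in the results below was not tested.

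No member passed the test between the vectors. Testing required a signal well above background on both arrays of at least 1 group, which 68 of 83 member probes had, covering 41 of the 45 genes. Of the 68, 0 changed (limma, Benjamini-Hochberg adjusted p under 0.05 over 35206 probes), and 1 had an unadjusted p under 0.05, against 0.0114% and 1.83% of all tested probes. Among all genes, each by its brightest probe, 0.00851% changed. Taking the brightest tested probe for each gene, 12 of 41 members were above 1-fold and 29 below, with a median log2 fold change (Hdac6 vector minus empty vector) of -0.12, while 50.8% of all 23492 genes were above and their median was 0.00. This count was 19 without empty vector 1, 20 without Hdac6 vector 2 and 19 when all tested probes of a gene were averaged. On both Hdac6 vector arrays 3 members were above both empty vector arrays, and 8 were below them, against 12.3% and 12.9% of all genes, or 11 of 41 against 25.2% in either direction. Of the 68 member probes, 8 were above and 8 below without overlap, where 25% of all tested probes did not overlap in either direction. The 95% interval lay within 2-fold in either direction for 34 of the 41 members. The exceptions were Ltbp1, Ltbp2, Bmp6, Gdf15, Chrd, Smad6 and Ski, for which larger differences are allowed by these data. Adjusted p was 1.00 for each of the 41 members.

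**Figure D1:**
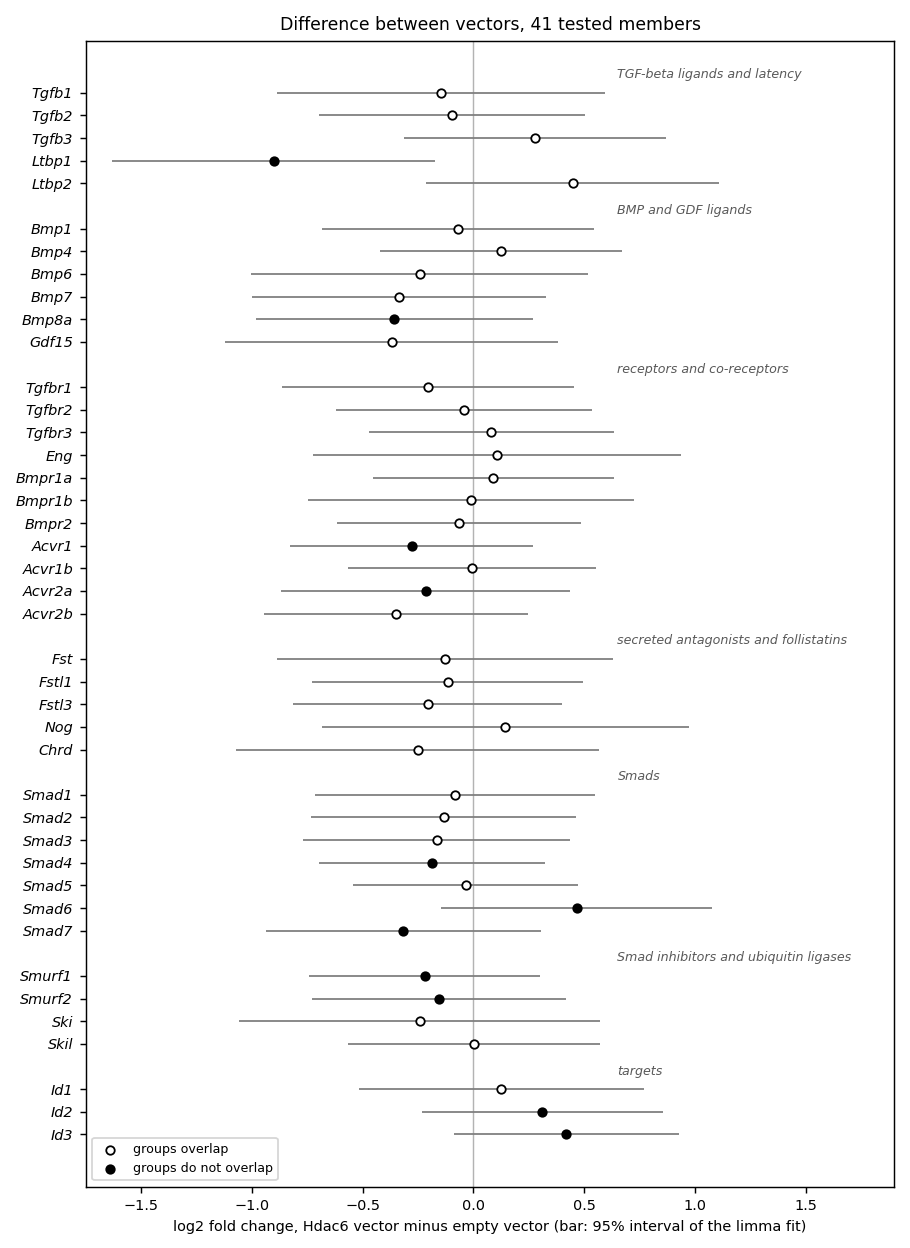
Log2 fold change (Hdac6 vector minus empty vector, horizontal axis) of the 41 tested members, grouped by role, with 95% intervals of the limma fit as bars and filled points where the 2 arrays of each group do not overlap. Only the interval of Ltbp1 leaves out 0. Of the 41 members 12 lie on the right, among them Id1, Id2, Id3, Smad6, Ltbp2 and Tgfb3.

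The 3 TGF-beta ligand genes were measured on all 4 arrays. Tgfb1, the most widely expressed ligand of the family, read -0.40 and 0.22 on the empty vector arrays and 0.09 and -0.57 on those of the Hdac6 vector. Its groups overlapped, at 0.903-fold (95% interval 0.540 to 1.51). Tgfb2 read 0.49 and 0.15 in the empty vector samples against 0.37 and 0.07 in the Hdac6 vector samples and stood at 0.935-fold (95% interval 0.617 to 1.42), again with overlap. Tgfb3 read 3.84 and 4.36 on the empty vector arrays and 4.25 and 4.50 on those of the Hdac6 vector. Only empty vector 1 stood apart there, and the gene was at 1.21-fold (95% interval 0.803 to 1.82).

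Latency proteins hold newly made TGF-beta in the matrix, and Ltbp1, which binds latent TGF-beta directly, had the largest difference among the members. Its brightest probe (chr17:75790530-75790589, mm9, plus strand) read 0.86 and 0.10 in the empty vector samples against -0.20 and -0.65 in the Hdac6 vector samples. Both Hdac6 vector arrays were below both empty vector arrays, with empty vector 1 well above the rest, at 0.535-fold (95% interval 0.323 to 0.886), an unadjusted limma p of 0.0205 and an adjusted p of 1.00. With an array left out the log2 fold change ran from -1.28 to -0.52. It was largest in size without empty vector 2, which left the high array, empty vector 1, as the only array of its group. The other tested Ltbp1 probes differed less and lay on either side of 1-fold: that at chr17:75748171-75748230 was at 0.804-fold (95% interval 0.440 to 1.47), and that at chr17:75446945-75447004 at 1.08-fold (95% interval 0.629 to 1.84). Averaged over the 3 tested probes, the log2 difference was -0.37. Ltbp2, a related microfibril protein that does not bind latent TGF-beta, read 1.93 and 1.53 on the empty vector arrays and 1.84 and 2.52 on those of the Hdac6 vector. Hdac6 vector 2 alone stood high, and the gene was at 1.36-fold (95% interval 0.863 to 2.16).

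Among BMP ligand genes, Bmp4 was well above background on all 4 arrays and Bmp2 on none. Bmp4, a ligand of germ cell and mesoderm development, read 5.33 and 5.58 in the empty vector samples against 5.49 and 5.67 in the Hdac6 vector samples, at 1.09-fold (95% interval 0.747 to 1.59). The groups overlapped by little, since only empty vector 2 reached into the Hdac6 vector range. Gdf10, a BMP3-like ligand gene, was like Bmp2 not well above background on any array. Bmp6, a ligand gene also known for its part in iron balance, read -1.23 and -1.68 on the empty vector arrays and -1.36 and -2.04 on those of the Hdac6 vector, with overlap, at 0.845-fold (95% interval 0.499 to 1.43). Bmp7, a ligand gene of kidney development, read 0.96 and 0.26 in the empty vector samples against 0.21 and 0.33 in the Hdac6 vector samples. Empty vector 1 alone stood high, at 0.792-fold (95% interval 0.501 to 1.25). Bmp8a, whose protein sustains spermatogenesis in mice, read -0.08 and -0.42 on the empty vector arrays and -0.45 and -0.77 on those of the Hdac6 vector. Its Hdac6 vector arrays were the lowest of the 4, by a narrow margin, at 0.780-fold (95% interval 0.506 to 1.20).

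Bmp1 carries the family's name but encodes a metalloprotease that cleaves procollagen and chordin. It read 4.62 and 4.12 in the empty vector samples against 4.09 and 4.51 in the Hdac6 vector samples, with overlap, and was at 0.952-fold (95% interval 0.622 to 1.46). Gdf15, a stress-induced ligand that signals through a receptor outside this family, read 1.03 and 0.06 on the empty vector arrays and 0.12 and 0.23 on those of the Hdac6 vector. Empty vector 1 alone was high, and its 0.774-fold (95% interval 0.460 to 1.30) changed sign without that array (log2 0.11).

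All 11 receptor and co-receptor genes were tested, and their log2 fold changes lay between -0.35 and 0.11, with 3 above 0 and 8 below. Of the TGF-beta receptors, the type I gene Tgfbr1 read 0.59 and 0.89 in the empty vector samples against 0.86 and 0.21 in the Hdac6 vector samples, at 0.868-fold (95% interval 0.549 to 1.37). The type II gene Tgfbr2 read 4.55 and 4.99 on the empty vector arrays and 4.60 and 4.85 on those of the Hdac6 vector, at 0.971-fold (95% interval 0.651 to 1.45). In both the groups overlapped, and Hdac6 vector 2 was the lowest Tgfbr1 array. Tgfbr3, which encodes the co-receptor betaglycan, read 3.29 and 3.44 in the empty vector samples against 3.64 and 3.25 in the Hdac6 vector samples, at 1.06-fold (95% interval 0.722 to 1.55). Eng, which encodes the co-receptor endoglin, read -3.57 and -2.72 on the empty vector arrays and -3.14 and -2.95 on those of the Hdac6 vector. Its empty vector arrays lay on either side of the Hdac6 vector arrays, and it was at 1.08-fold (95% interval 0.605 to 1.91).

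The BMP receptor genes were all close to 1-fold. The type I gene Bmpr1a read 1.35 and 1.57 in the empty vector samples against 1.65 and 1.45 in the Hdac6 vector samples, at 1.06-fold (95% interval 0.730 to 1.55). Its paralog Bmpr1b read -3.26 and -2.79 on the empty vector arrays and -2.97 and -3.10 on those of the Hdac6 vector, at 0.993-fold (95% interval 0.596 to 1.65). The type II gene Bmpr2 read 2.77 and 2.37 in the empty vector samples against 2.44 and 2.56 in the Hdac6 vector samples, at 0.956-fold (95% interval 0.651 to 1.40). In each of the 3 the empty vector arrays lay farther from each other than the group means did, and the signs of Bmpr1a and Bmpr1b, like those of Tgfbr2, Tgfbr3 and Acvr1b, turned with the scaling or the background correction.

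Of the activin receptor group, Acvr1 (a type I receptor used mostly by BMPs) read 4.89 and 4.60 on the empty vector arrays and 4.34 and 4.59 on those of the Hdac6 vector. The Hdac6 vector arrays were the lowest 2, by a very narrow margin, at 0.825-fold (95% interval 0.564 to 1.21). Acvr1b, the main activin type I receptor gene, read 1.90 and 1.52 in the empty vector samples against 1.63 and 1.79 in the Hdac6 vector samples and was at 0.996-fold (95% interval 0.676 to 1.47). The type II receptor genes Acvr2a and Acvr2b serve activins and BMPs alike. Acvr2a read -1.89 and -1.73 on the empty vector arrays and -1.93 and -2.12 on those of the Hdac6 vector, a small separation at 0.861-fold (95% interval 0.547 to 1.35). Acvr2b read 3.28 and 2.76 in the empty vector samples against 2.51 and 2.83 in the Hdac6 vector samples, with empty vector 1 high, at 0.785-fold (95% interval 0.519 to 1.19).

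Secreted antagonists showed no difference beyond their spread. Fst, which encodes the activin-binding protein follistatin, read -3.25 and -3.59 on the empty vector arrays and -3.35 and -3.74 on those of the Hdac6 vector, at 0.915-fold (95% interval 0.541 to 1.55). Fstl3, a second activin binder, read 1.71 and 1.89 in the empty vector samples against 1.88 and 1.31 in the Hdac6 vector samples. Hdac6 vector 2 was its lowest array, at 0.866-fold (95% interval 0.569 to 1.32). Fstl1, a secreted glycoprotein gene of the same family, read 6.68 and 6.35 on the empty vector arrays and 6.19 and 6.62 on those of the Hdac6 vector, at 0.922-fold (95% interval 0.604 to 1.41). At these probes the groups overlapped in each of the 3 genes. The dimmer Fstl1 probes were at 1.09-fold and 1.14-fold. At the first of these both Hdac6 vector arrays were above both empty vector arrays. The sign of Fst turned under a scaling or background setting.

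Of the BMP antagonist genes, Chrd (chordin) read -1.08 and -1.55 in the empty vector samples against -2.02 and -1.12 in the Hdac6 vector samples. The Hdac6 vector arrays held both its lowest value and 1 near the top, at 0.840-fold (95% interval 0.476 to 1.48). Nog (noggin) read -5.34 and -5.10 on the empty vector arrays and -4.80 and -5.35 on those of the Hdac6 vector, was well above background on 3 of the 4 arrays, not on Hdac6 vector 2, and stood at 1.10-fold (95% interval 0.622 to 1.96). Grem1 (gremlin 1) was not well above background on any array and was not tested.

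All 7 Smad genes were measured on all 4 arrays. The TGF-beta and activin branch is carried by Smad2 and Smad3. Smad2 read 1.38 and 1.00 in the empty vector samples against 0.87 and 1.25 in the Hdac6 vector samples, at 0.912-fold (95% interval 0.602 to 1.38). Smad3 read 5.29 and 5.25 on the empty vector arrays and 4.82 and 5.40 on those of the Hdac6 vector, at 0.892-fold (95% interval 0.587 to 1.35). In both genes the groups overlapped, and Hdac6 vector 1 was the lowest array. The BMP branch is carried by Smad1 and Smad5. Smad1 read 2.13 and 2.06 in the empty vector samples against 2.36 and 1.67 in the Hdac6 vector samples, with its Hdac6 vector arrays on either side of the others, at 0.945-fold (95% interval 0.610 to 1.46). Smad5 read 2.80 and 2.89 on the empty vector arrays and 2.78 and 2.84 on those of the Hdac6 vector, the 4 arrays lying close together, at 0.976-fold (95% interval 0.686 to 1.39). Smad4, the partner shared by both branches, read 4.06 and 3.999 in the empty vector samples against 3.79 and 3.90 in the Hdac6 vector samples. Its Hdac6 vector arrays were the lowest 2, at 0.879-fold (95% interval 0.617 to 1.25). The other tested Smad4 probes lay on the other side, at 1.02-fold, 1.15-fold and 1.27-fold (95% interval 0.785 to 2.04). At the last of these both Hdac6 vector arrays were above both empty vector arrays. Averaged over all tested Smad4 probes, the log2 difference was 0.09.

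The inhibitory Smads stood on opposite sides of 1-fold. Smad6, which restrains mainly BMP signals, read 0.79 and 1.34 on the empty vector arrays and 1.64 and 1.41 on those of the Hdac6 vector (chr9:63801378-63801437, mm9, minus strand). Both Hdac6 vector arrays were above both empty vector arrays, and empty vector 1 was the low array, at 1.38-fold (95% interval 0.904 to 2.11) and a log2 fold change of 0.47 that ran from 0.19 to 0.74 with an array left out, lowest without empty vector 1. Smad7, which restrains both branches, read 0.36 and 0.40 in the empty vector samples against 0.34 and -0.21 in the Hdac6 vector samples. Only Hdac6 vector 2 lay clearly lower, at 0.803-fold (95% interval 0.522 to 1.24). Neither passed, and the difference between these 2 genes was not tested.

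The ubiquitin ligase genes Smurf1 and Smurf2, whose proteins mark Smads and receptors for degradation, were slightly lower on both Hdac6 vector arrays. Smurf1 read 4.96 and 5.00 on the empty vector arrays and 4.68 and 4.84 on those of the Hdac6 vector, at 0.859-fold (95% interval 0.598 to 1.23). Smurf2 read -0.28 and -0.17 in the empty vector samples against -0.36 and -0.41 in the Hdac6 vector samples, at 0.898-fold (95% interval 0.604 to 1.34). The margins between the groups were narrow in both. Ski, a nuclear repressor of Smad complexes, read 1.60 and 2.11 on the empty vector arrays and 2.15 and 1.07 on those of the Hdac6 vector. Its Hdac6 vector arrays were the highest and the lowest of the 4, at 0.845-fold (95% interval 0.480 to 1.49). Skil, which encodes the related repressor SnoN, read 1.85 and 1.77 in the empty vector samples against 2.04 and 1.59 in the Hdac6 vector samples, at 1.00-fold (95% interval 0.675 to 1.49), with a sign that turned under a scaling or background setting.

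The Id genes encode proteins that block basic helix-loop-helix transcription factors, and their log2 fold changes were 0.13, 0.31 and 0.42 for Id1, Id2 and Id3. Id3 had the closest replicates of the 3 (chr4:135700075-135700249, mm9, plus strand), at 3.45 and 3.40 on the empty vector arrays and 3.81 and 3.88 on those of the Hdac6 vector. Both Hdac6 vector arrays were above both empty vector arrays, at 1.34-fold (95% interval 0.941 to 1.90), with an unadjusted limma p of 0.0941, an adjusted p of 1.00 and a log2 fold change of 0.38 to 0.45 with an array left out. Id2 (chr12:25778904-25778963, mm9, minus strand) read 1.48 and 1.31 in the empty vector samples against 1.83 and 1.58 in the Hdac6 vector samples. Its groups did not overlap either, at 1.24-fold (95% interval 0.852 to 1.81), though its dimmer probe was at 0.923-fold (95% interval 0.530 to 1.61). Id1 read 5.89 and 5.62 on the empty vector arrays and 5.56 and 6.20 on those of the Hdac6 vector. There the Hdac6 vector arrays were the highest and the lowest, at 1.09-fold (95% interval 0.699 to 1.70). Tgfbi, a matrix protein gene named for its induction by TGF-beta, was not well above background on any array. The promoters of Id2 and Smad6 printed above hold a capitalised element and that of Id3 does not. Promoters of members below 1-fold, such as Ski and Smurf2, hold GGCGCC as well, and a link of these elements to the levels was not tested.

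Several members have more than 1 probe, and these did not always go together. Of the 21 members with more than 1 tested probe, 9 had all probes on 1 side of no change and 12 had probes on both sides. The dimmer Tgfb2 probe (chr1:188449333-188449392, mm9, minus strand) read -1.11 and 0.49 in the empty vector samples against 0.88 and -0.95 in the Hdac6 vector samples. Empty vector 2 and Hdac6 vector 1 were high there and the other arrays low, so the spread within each group was far larger than the difference between groups, at 1.20-fold (95% interval 0.455 to 3.19). A Smad4 probe behaved alike, with 0.60 and 1.46 on the empty vector arrays and 1.65 and 0.47 on those of the Hdac6 vector. The dimmer Bmpr1a probe was at 1.73-fold (95% interval 0.737 to 4.05), the highest fold of any tested member probe, from -3.19 and -4.01 in the empty vector samples against -3.67 and -1.95 in the Hdac6 vector samples, with Hdac6 vector 2 alone standing high. The dimmer Smurf2 probe was at 0.695-fold (95% interval 0.358 to 1.35), with Hdac6 vector 2 alone standing low.

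**Figure D2:**
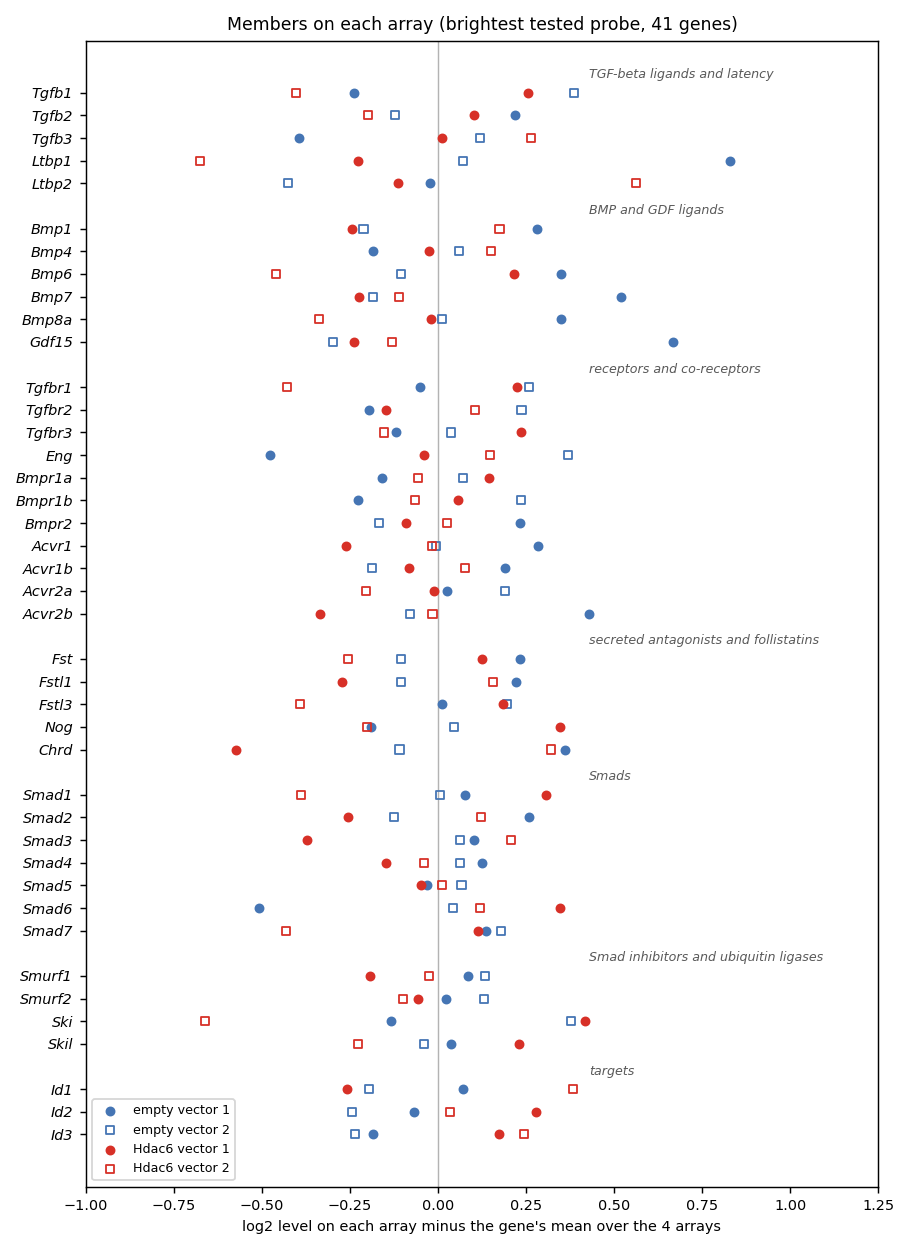
Log2 level on each of the 4 arrays minus the gene's own mean (horizontal axis) for the 41 tested members, blue for the empty vector and red for the Hdac6 vector, circles for array 1 and squares for array 2. Blue and red points are mixed for most genes and stand apart for 11, among them Id2, Id3, Smad6 and Ltbp1.

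For most members the difference between vectors was smaller than that between replicates in at least 1 group. The median absolute difference between the 2 arrays of a group was 0.34 (log2) with the empty vector and 0.32 with the Hdac6 vector, and that between the group means was 0.16. Each group mean averages 2 arrays, so a difference between means varies less than one between single arrays, and these are unlike measures. Over all tested genes the same 3 medians were 0.27, 0.33 and 0.17. For 8 of 41 members (19.5%) the difference between vectors exceeded both differences between replicates, against 14.5% of all tested genes. In 27 of 41 members (65.9%) array 2 was above array 1 in 1 group and below it in the other, against 60.5% of all tested genes.

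The rest of the pathway was taken from a list of 87 further genes grouped by function, of which 73 were tested. Of these 0 changed (limma), 3 had an unadjusted p under 0.05, 27 were above 1-fold and 46 below, and their median log2 fold change was -0.10. Among 15 TGF-beta target genes 4 were above and 11 below, with a median of -0.10, and among 9 further BMP target genes 3 were above and 6 below, with a median of -0.23. The groups did not overlap for 10 of the 73 on the higher side and 19 on the lower, where 12.3% and 12.9% of all genes did not.

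Ccn2, a matricellular target also known as Ctgf, read 6.41 and 6.47 on the empty vector arrays and 5.95 and 6.39 on those of the Hdac6 vector, at 0.831-fold (95% interval 0.553 to 1.25), with Hdac6 vector 1 alone clearly lower. Pmepa1, a feedback inhibitor of TGF-beta signals, read 4.67 and 5.28 in the empty vector samples against 4.74 and 4.78 in the Hdac6 vector samples, at 0.859-fold (95% interval 0.565 to 1.31), with overlap. Acta2, picked after its values were seen, encodes smooth muscle actin and read 3.06 and 3.12 on the empty vector arrays and 3.58 and 3.73 on those of the Hdac6 vector, at 1.48-fold (95% interval 1.04 to 2.10) and an unadjusted limma p of 0.0346. It is also 1 of the 5 peritubular myoid markers, of which 2 were above 1-fold. Their summed signal was 10.9 and 10.3 times the 75th percentile in the empty vector samples and 13.6 and 14.9 in the Hdac6 vector samples. Acta2 itself makes up most of that sum on every array, so the sum is no separate measure of such cells. Of the rest, Myh11 was at 1.05-fold, and Des, Cnn1 and Tagln were at 0.795-fold, 0.667-fold and 0.952-fold. The part of such cells in the result was not tested.

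On the BMP side, Atoh8, a helix-loop-helix gene induced by BMPs, read -2.31 and -2.47 in the empty vector samples against -1.75 and -1.32 in the Hdac6 vector samples. Both Hdac6 vector arrays were higher, at 1.81-fold (95% interval 1.12 to 2.91) and an unadjusted limma p of 0.0204. Id4, the Id gene known from spermatogonial stem cells, read -3.29 and -4.04 on the empty vector arrays and -4.31 and -3.91 on those of the Hdac6 vector, at 0.732-fold (95% interval 0.405 to 1.32), so it lay on the other side of 1-fold from Id1 to Id3. Runx2, a bone transcription factor gene, read -1.03 and -1.55 in the empty vector samples against -1.79 and -2.01 in the Hdac6 vector samples, at 0.655-fold (95% interval 0.405 to 1.06). Smad9, the further receptor Smad gene of the BMP branch, read -2.15 and -3.36 on the empty vector arrays and -2.93 and -2.49 on those of the Hdac6 vector, at 1.03-fold (95% interval 0.530 to 2.01). Bambi, which encodes a pseudoreceptor, read -0.86 and -1.67 in the empty vector samples against -1.72 and -1.30 in the Hdac6 vector samples, at 0.845-fold (95% interval 0.492 to 1.45). In both the groups overlapped.

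The beta subunit genes Inhba and Inhbb give activins, or inhibins when paired with the product of Inha. Inhbb read 3.70 and 3.86 on the empty vector arrays and 3.81 and 3.93 on those of the Hdac6 vector, at 1.06-fold (95% interval 0.741 to 1.52), and its groups overlapped. Inhba read 1.13 and 1.73 in the empty vector samples against 1.57 and 1.22 in the Hdac6 vector samples, at 0.973-fold (95% interval 0.626 to 1.51), also with overlap. Inha read -2.19 and -2.02 on the empty vector arrays and -2.36 and -2.63 on those of the Hdac6 vector, at 0.763-fold (95% interval 0.476 to 1.22). Of the 3 subunit genes only Inha had groups that did not overlap, with the Hdac6 vector arrays below. Gdf9, best known from oocytes, read -1.81 and -2.38 in the empty vector samples against -3.04 and -2.67 in the Hdac6 vector samples, at 0.593-fold (95% interval 0.351 to 1.00). Gdf1, a ligand gene of left-right patterning, read -2.05 and -2.55 on the empty vector arrays and -3.08 and -2.83 on those of the Hdac6 vector, at 0.635-fold (95% interval 0.382 to 1.06). In both the Hdac6 vector arrays were the lowest 2. The anti-Mullerian hormone receptor gene Amhr2 read -0.82 and -1.31 in the empty vector samples against -1.81 and -1.49 in the Hdac6 vector samples, at 0.668-fold (95% interval 0.415 to 1.08), while its ligand gene Amh was not well above background on any array. Acvrl1, an endothelial type I receptor gene, read -3.28 and -3.04 on the empty vector arrays and -3.54 and -3.04 on those of the Hdac6 vector, at 0.915-fold (95% interval 0.541 to 1.55). The signs of Inhbb and Smad9 turned under a scaling or background setting. With an array left out, those of Acvrl1, Bambi, Inhba, Pmepa1 and Smad9 turned, and the log2 fold change of Smad9 ran from -0.56 to 0.65. Runx2 lay on the other side of no change in the authors' deposited table, and none of these genes passed.

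**Figure D3:**
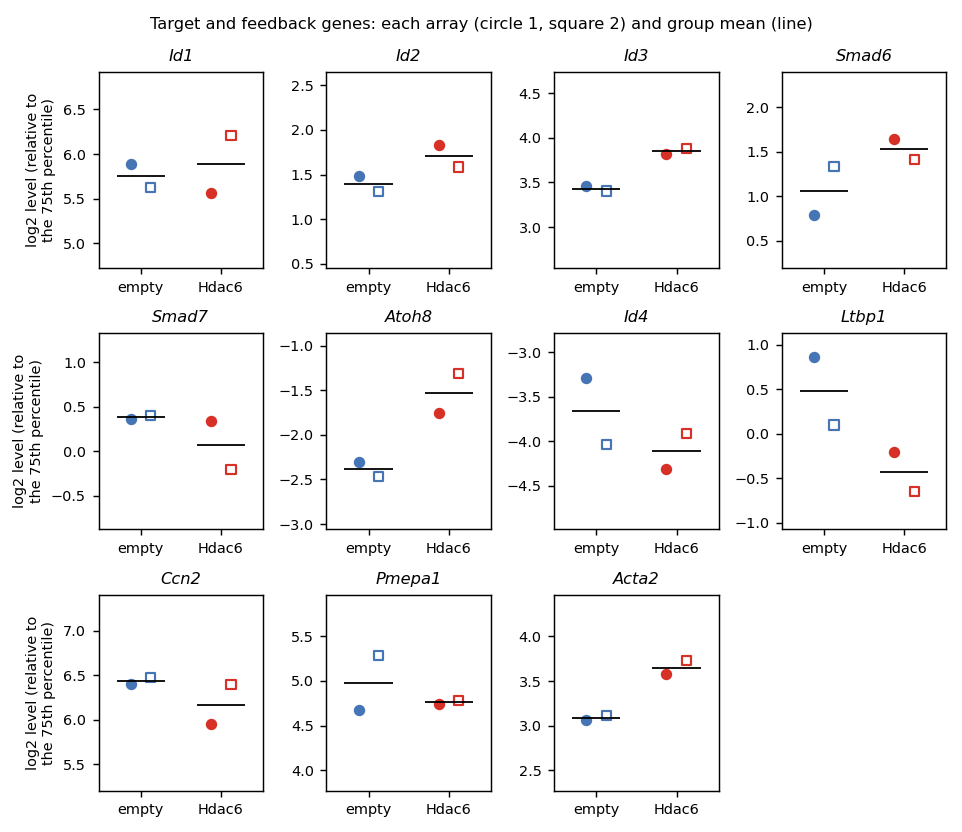
Log2 level against the array's 75th percentile (vertical axis, the same span in each panel) of 11 genes on the empty vector arrays (blue) and the Hdac6 vector arrays (red), with circles for array 1, squares for array 2 and a line at each group mean. The genes are target and feedback genes and the latency gene Ltbp1. The groups stand apart for Id2, Id3, Smad6, Atoh8 and Acta2 on the higher side. On the lower side they stand apart for Ltbp1 and, by very narrow margins, for Smad7 and Ccn2. None of the 11 passed the test. The 11 were picked by hand, Acta2 after its values were seen, so how many stand apart is no result. Among all genes the groups did not overlap for 25.2%.

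The authors also deposited a value table with 1 log2 value per gene name, whose scale was found by setting it against the scanner values. In the authors' deposited table each of the 41 members with a detected probe held, within 0.01, the mean of its probes well above background on that array. This was checked on every array with such a probe, which left out Nog on Hdac6 vector 2, where its row read -5.35. The number of such probes differed between arrays for 7 members, Tgfbr1, Bmpr2, Acvr1, Acvr2b, Nog, Smad5 and Skil. In the authors' deposited table, set on the level scale used here, Acvr2b read -0.60 and 2.77 for the empty vector and -1.15 and 2.83 for the Hdac6 vector. Its brighter probe varied far less (given above), and the dimmer probe was well above background on array 1 of each group alone. Of the 45 members 0 passed limma on the authors' deposited table.

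**Figure D4:**
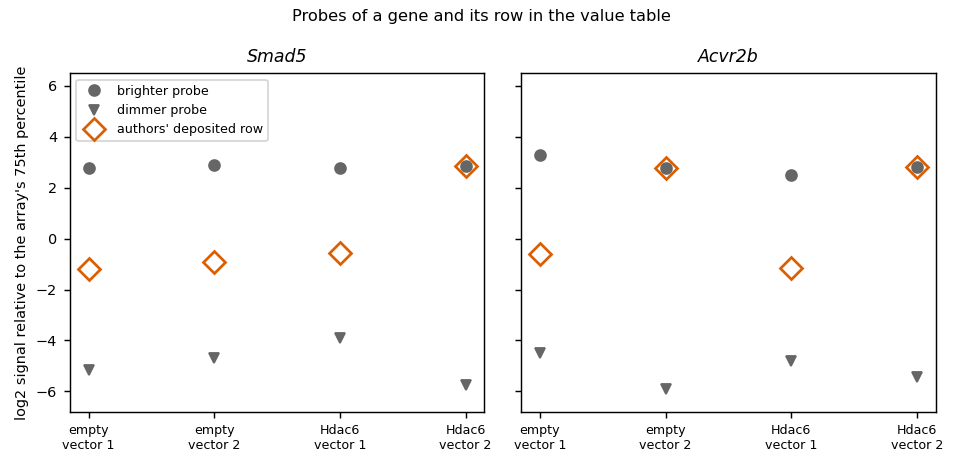
Log2 level on the scale of the array's 75th percentile (vertical axis) of both probes of Smad5 (left) and Acvr2b (right) on the 4 arrays, in grey, and the row of each gene in the authors' deposited table, as orange diamonds. The row lies midway between the probes where both were well above background and on the brighter probe where the dimmer was not.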

How the data were processed

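Per the file headers, spot intensity values were extracted with Agilent Feature Extraction 11.5.1.1 (protocol GE1_1105_Oct12), background-subtracted and detrended, and the authors deposited them without normalization between arrays. Probe positions are those of the files (mm9). All 4 arrays were on 1 slide. The deposited value table holds log2 values; their making was not given in the sources used here. Against the scanner values of names with 1 probe, at least 99.8% of rows differed by a constant per array (tolerance 0.01), which fixes its scale, direction and centring there; its column medians were -3.78, -3.67, -3.71 and -3.68.

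Spots flagged as outliers were left out (15 probes lost), repeated spots averaged, and each array's 75th percentile subtracted from log2 processed signal. Of 56605 probes, 43738 were matched to the GRCm38.p6 RefSeq gene table for names. Probes well above background on both arrays of at least 1 group were tested (35206) with limma 3.58.1 in R 4.3.3 (lmFit, eBayes with a trend), a two-sided test, and p-values adjusted by Benjamini-Hochberg across these probes. The functions were checked on simulated data. Alternatives were normexp (offset 50), quantile and median scaling, no or a stricter filter, no trend, the replicate block, all probes averaged, the value table, and each array left out.

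The members and lists were chosen with earlier results of these data known. All members are named by their brightest tested probe. Further genes are named if changed, if their groups do not overlap and they differ by at least 0.5 (log2; the largest 6), or from a list of 10 feedback and activin genes; 1 gene that the rule names is not reported here.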

Additional observations from a re-analysis of the deposited data

Results flagged for a closer look

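In the authors' deposited table, which lies outside the main comparison, the Smad5 row was higher on both Hdac6 vector arrays than on both empty vector arrays with group means 2.18 (log2) apart, at -1.18 and -0.90 for the empty vector and -0.57 and 2.84 for the Hdac6 vector, and it did not pass limma there (adjusted p = 1.00). The brighter Smad5 probe differed by -0.04. The dimmer read -5.15 and -4.70 in the empty vector samples against -3.92 and -5.77 in the Hdac6 vector samples and was not well above background on Hdac6 vector 2.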

How the results depend on the processing

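The count of changed probes, 4 by the test described, was 29 with normexp background correction, 2 with quantile normalization, 0 with median scaling (727 at an unadjusted limma p under 0.05), 2 with no trend in the spread, 22 with the replicate block and 19 rows in the authors' deposited table. With an array left out it ran from 0 (Hdac6 vector 2 left out, 761 at an unadjusted limma p under 0.05) to 334 (empty vector 2 left out), with 30 without empty vector 1 and 175 without Hdac6 vector 1. Same-numbered arrays deviated oppositely from their group means (correlation -0.36 over tested probes), so the numbers are not taken as a pairing, and the block changed no call of a member. With the numbers crossed, an alternative chosen after seeing the data, 14 probes changed, 0 of them members. Member probes changed in number from 0 to 1 with an array left out and 0 in every other setting run. Of the other pathway genes 0 changed in any setting. Members above 1-fold, 12 of 41, numbered 9 to 14 under the settings of scaling, background and filter, 15 to 20 with an array left out, 19 with the mean of all tested probes and 18 in the authors' deposited table. Where no direction was called, a change of sign was counted and not taken as a reversal: 14 of 41 members kept their sign in every setting run (Tgfb3, Ltbp1, Ltbp2, Bmp4, Bmp8a, Acvr1, Acvr2a, Acvr2b, Smad6, Smad7, Smurf1, Smurf2, Id2 and Id3), 27 changed it in at least 1, 26 of them with an array left out. For these counts and that of members above 1-fold, the authors' deposited table was fitted as deposited, without setting it on the level scale. On the level scale the deposited Acvr1 row differed by 0.07 (log2), on the other side of no change from its brightest probe. The signal over background limits Nog and the 4 members that were dim on all arrays. With an array left out, the lone array of a group is assumed to vary like the rest.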
